A study of Mus musculus with 2 samples.

Results

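Mitochondrial carriers of the SLC25 family were examined in RNA sequencing of RAW264.7, a mouse macrophage-like line of leukaemic origin that the labels give as wild type. The members are the genes whose symbol in the count table is Slc25a followed by a number alone, 47 of 56791 genes. The study asked what FAPD10-exos, a vesicle preparation named so in the labels, does when macrophages are polarized toward the M2 state. As the treatment protocol reads, both cultures received 20 ng of mouse recombinant IL-4 for 24 h, and the culture of the treated library also received 10000000 particles of FAPD10-exos in that time, against vehicle in the other. Each group held 1 library, so no test between conditions was possible and every difference below is between these 2 libraries. Bulk RNA cannot tell less RNA per cell from fewer cells that express a gene.

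SLC25 proteins span the inner mitochondrial membrane and move nucleotides, phosphate, amino acids, carboxylic acids, cofactors and metals between the cytosol and the matrix. They are encoded in the nucleus, made in the cytosol and inserted through the TIM22 translocase. The ADP/ATP carriers and the phosphate carrier supply the ATP synthase with its substrates, and the citrate, malate and aspartate carriers link the tricarboxylic acid cycle to cytosolic metabolism, which macrophages rewire during activation.

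The stretches of genome just before the start of 5 carriers are shown, each from a gene with a difference described below. Slc25a4, Slc25a39 and Slc25a35 were also higher in the treated library, but only before correction for principal transcript length. The stretches of Slc25a4 and Slc25a39 overlap exons by up to 222 and 27 bases and are not shown, and Slc25a35 had no matched promoter entry. Slc25a5 was likewise higher only before that correction, and on an uncertain count. Slc25a23, Slc25a24 and Slc25a30 were lower, and Slc25a12 stood above the level set by its transcript length. Each stretch holds the 250 bases before the RefSeq start in GRCm38.p6, read 5′ to 3′ on the strand of the gene, and no exon of GENCODE M21 lies in it. They are chrX:36795347-36795596 on the plus strand, chr17:57059864-57060113 on the minus strand, chr3:109122899-109123148 on the plus strand, chr14:75787038-75787287 on the minus strand and chr2:71367756-71368005 on the minus strand. Capitals mark GC boxes (GGGCGG or its complement CCGCCC) and CCAAT boxes (CCAAT or ATTGG).
Slc25a5: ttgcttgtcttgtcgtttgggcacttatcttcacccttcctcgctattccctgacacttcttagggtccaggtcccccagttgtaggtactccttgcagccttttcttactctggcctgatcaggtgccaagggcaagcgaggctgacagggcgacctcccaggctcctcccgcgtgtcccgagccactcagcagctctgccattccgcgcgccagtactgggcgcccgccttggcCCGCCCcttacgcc
Slc25a23: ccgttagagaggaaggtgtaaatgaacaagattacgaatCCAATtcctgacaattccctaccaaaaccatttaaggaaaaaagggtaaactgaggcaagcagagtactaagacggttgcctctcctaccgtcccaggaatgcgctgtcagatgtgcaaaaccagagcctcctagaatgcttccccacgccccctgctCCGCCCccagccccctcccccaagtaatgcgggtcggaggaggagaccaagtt
Slc25a24: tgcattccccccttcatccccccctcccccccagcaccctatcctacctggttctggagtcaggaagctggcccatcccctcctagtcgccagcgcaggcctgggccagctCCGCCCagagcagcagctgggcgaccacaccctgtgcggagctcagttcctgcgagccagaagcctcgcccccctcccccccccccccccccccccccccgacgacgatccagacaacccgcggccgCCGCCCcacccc
Slc25a30: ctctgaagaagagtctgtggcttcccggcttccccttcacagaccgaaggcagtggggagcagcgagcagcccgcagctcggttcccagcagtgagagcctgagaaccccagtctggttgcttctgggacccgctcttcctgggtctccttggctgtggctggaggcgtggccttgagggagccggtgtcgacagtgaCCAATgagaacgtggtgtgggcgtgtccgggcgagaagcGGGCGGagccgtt
Slc25a12: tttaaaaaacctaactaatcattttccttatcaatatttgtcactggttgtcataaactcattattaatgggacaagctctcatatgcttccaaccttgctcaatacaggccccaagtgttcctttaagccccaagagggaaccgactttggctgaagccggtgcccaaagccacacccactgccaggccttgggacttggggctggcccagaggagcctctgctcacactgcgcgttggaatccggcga

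Of the 47 members, 36 had a RefSeq promoter entry, and both motifs were searched on both strands in the 250 bases before the start. A GC box was present in 24 of the 36, and in 19 of the 27 that are measured, against 59.8% of 8506 measured genes and 32.9% of all 27025 promoters. A CCAAT box was present in 16 of the 36, and in 12 of the 27 that are measured, against 37.3% of measured genes and 34.5% of all promoters. The stretch of Slc25a24 held 2 GC boxes and no CCAAT box, those of Slc25a23 and Slc25a30 held 1 of each, that of Slc25a5 held 1 GC box, and that of Slc25a12 held neither. The G and C content was 72.8% for Slc25a24, 64.4% for Slc25a30, 61.6% for Slc25a5, 52.4% for Slc25a23 and 49.6% for Slc25a12, beside a median of 60.0% over measured genes. A GC box was found in 2 of the 3 matched higher carriers and in 3 of the 3 lower ones. The CACGTG E-box was found in 6 of the 36 promoters, among them Slc25a1 and Slc25a13, against 8.76% of measured genes. TATAAA was found in 1, that of Slc25a18, against 5.82%. The NRF1 motif TGCGCATGC was found in 1, that of Slc25a31, the CRE motif TGACGTCA in 1, that of Slc25a36, and the ERR motif TCAAGGTCA and the YY1 motif AAGATGGCG in 0. Among measured genes these stood in 2.88%, 2.89%, 0.223% and 1.35% of promoters. Slc25a18 and Slc25a31 were not among the measured carriers.

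The treated library held 37196241 counts and the vehicle library 36152743. Levels are given as counts per 1000000 counts of the TMM-scaled library size (CPM), and 1 CPM was worth 35.6 counts after treatment and 37.8 with vehicle. Ratios are treated over vehicle. The range in parentheses after a ratio is its 95% interval from counting error alone, computed with counts halved because both ends of a read pair seem to have been counted. Macrophage markers were present, with 10 of 10 having a count and a summed level of 2165 against 2369 CPM, although Mertk had 0 against 2 counts and Adgre1, which encodes F4/80, 247 against 90. Of 15 markers of fibroblast, myogenic, endothelial and lymphoid cells 8 had a count, the highest being Pecam1 at 24 against 6, and Col1a1, Dcn, Pax7, Myod1 and Cd3e had 0 in both libraries. By cell type the summed levels of these markers ran from 0 to 0.731 CPM in the treated library and from 0 to 0.318 with vehicle.

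Of the 47 carriers, 35 had a mean of at least 1 CPM and are called measured, 4 had fewer counts, and 8 had none. The 8 without a count were Slc25a21, Slc25a27, Slc25a29, Slc25a31, Slc25a34, Slc25a41, Slc25a48 and Slc25a54, which include the ADP/ATP carrier known from testis and an uncoupling protein relative known from brain. At a count of 0 a true level of up to 3 counts is possible if every count is independent, which is 0.0843 CPM after treatment and 0.0794 CPM with vehicle. With counts halved, as for the intervals, the possible level is higher. For Slc25a31 it reached 0.0974 CPM per kb of its 2128 nt principal transcript after treatment and 0.0917 with vehicle. All members together took 0.0891% of counts after treatment and 0.0804% with vehicle.

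3 carriers dominated the family. Levels between genes are compared as CPM per kb of the principal transcript in GENCODE M21, with intervals for counting error. Slc25a3, the phosphate carrier, stood first at 146 (141 to 150) after treatment and 128 (124 to 132) with vehicle. Slc25a5, the ADP/ATP carrier ANT2, followed at 110 (106 to 115) and 65.7 (62.4 to 69.0), and Slc25a4, the ADP/ATP carrier ANT1, at 103 (99.9 to 107) and 62.9 (60.3 to 65.5). The intervals of Slc25a5 and Slc25a4 overlapped within each library, so their order is not resolved. Next came Slc25a39, linked to glutathione import, and Slc25a28, the iron carrier mitoferrin-2, in that order at 22.8 and 18.8 in the treated library and in the reverse order at 15.0 and 18.3 in the vehicle library. Their intervals did not overlap in either library, but the intervals do not cover the choice of length. Slc25a28 has the shorter principal transcript, 1535 against 1685 nt, but the longer exon length in the count table, 3749 against 2756. For Slc25a3 these lengths are 1612 and 5550 nt, for Slc25a4 1925 and 2353, and for Slc25a5 1240 and 1646. Levels by exon length were not computed, so the order of these carriers holds for the principal transcript only. The other measured carriers lay at 9.23 CPM per kb or below, and most neighbours in the order overlapped. The lowest measured were Slc25a16, a carrier linked to coenzyme A, at 0.429 and 0.496, and Slc25a53, an orphan member, at 0.416 and 0.433, in the treated and vehicle libraries in turn.

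**Figure D1:**
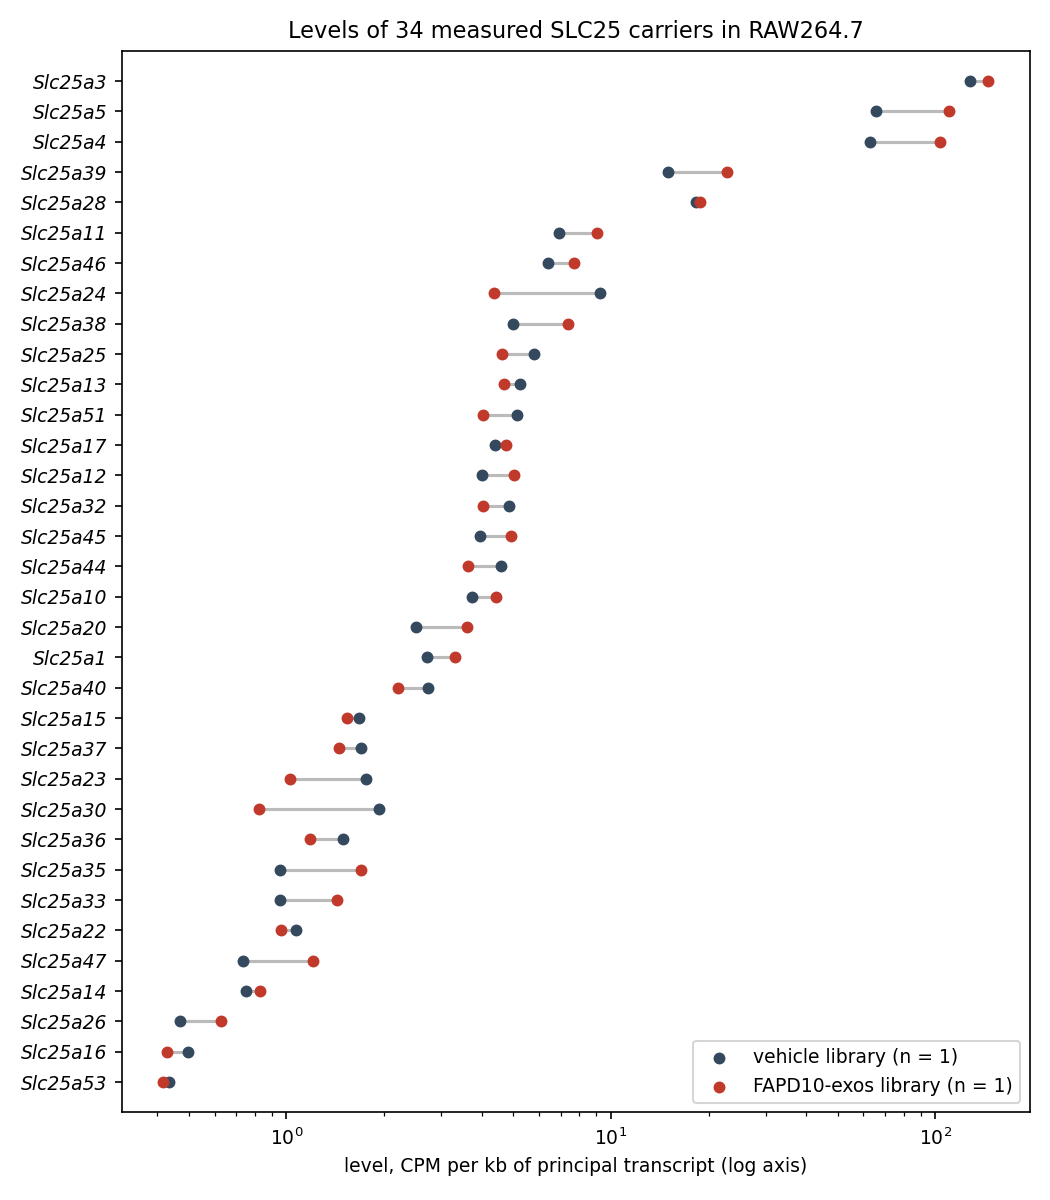
Level of 34 of the 35 measured SLC25 carriers in each library, in CPM per kb of principal transcript on a log axis, ordered by the mean of both; each point is 1 library and the grey line joins the pair. Slc25a3, Slc25a5 and Slc25a4 lie at 62.9 or above in both libraries, and the other carriers at 22.8 or below.

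The order shifted most for Slc25a24, which was the sixth carrier per length in the vehicle library, at 9.23 (8.51 to 10.0), and ranked 16 in the treated library, at 4.36 (3.85 to 4.91). Slc25a12, the aspartate-glutamate carrier aralar, ranked 16 in the vehicle and 9 in the treated library. By raw counts, Slc25a3, Slc25a4 and Slc25a5 made up 61.3% of 33154 member counts after treatment and 53.2% of 29064 with vehicle. The pooled ratio over all 47 members was 1.21 (1.18 to 1.24), and without these 3 it was 1.003 (0.970 to 1.04) over 44 members. The pooled excess thus lay in these 3 genes, and mainly in Slc25a4 and Slc25a5. The share of member counts in Slc25a4 rose from 15.7% with vehicle to 21.3% after treatment, and that in Slc25a5 from 10.6% to 14.7%. The share in Slc25a3, the most abundant, fell from 26.9% to 25.2%. The pooled ratios were not corrected for transcript length.

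A carrier was called higher or lower where its 2 levels differed by 1.5-fold or more and the interval of the ratio left out 1. By this rule 4 of 35 measured carriers were higher and 3 lower, while the same rule called 16.2% of the 12264 measured genes higher and 18.8% lower. The family therefore held no larger share of such genes than the libraries as a whole. The median log2 ratio of the 35 carriers was 0.14, beside 0.01 over all measured genes, with 20 carriers above 0 and 15 below. The higher genes were Slc25a4, Slc25a5, Slc25a39 and Slc25a35, and the lower ones Slc25a23, Slc25a24 and Slc25a30.

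**Figure D2:**
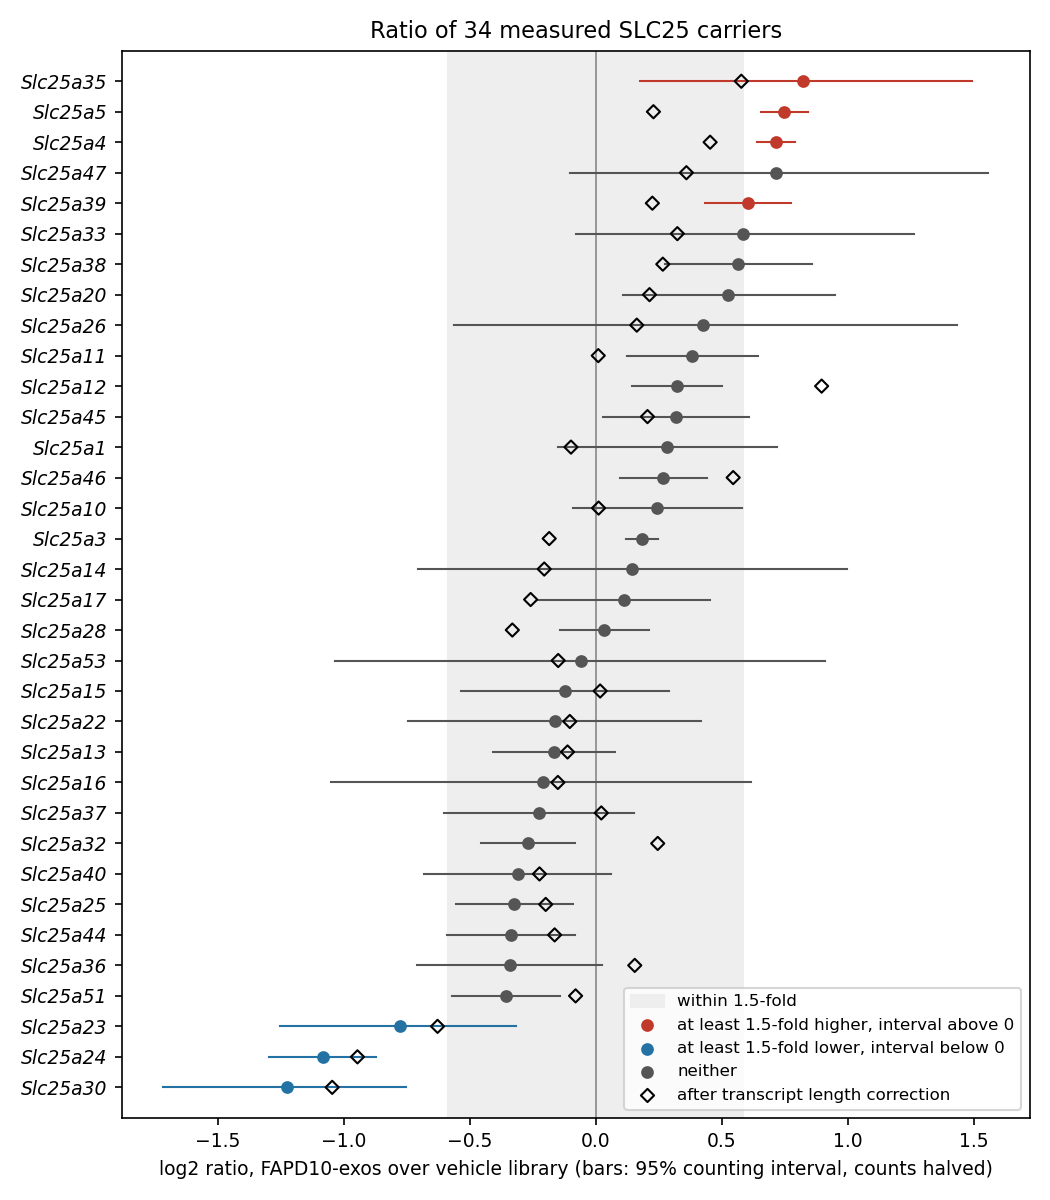
Log2 ratio of the FAPD10-exos over the vehicle library for 34 of the 35 measured carriers, with 95% counting intervals from halved counts (bars), and the ratio after correction for principal transcript length (open diamonds); grey marks ratios within 1.5-fold. Slc25a23, Slc25a24 and Slc25a30 lie beyond 1.5-fold on both scales, whereas Slc25a4, Slc25a5, Slc25a39 and Slc25a35 do so only before the correction and Slc25a12 only after it.

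The ratio went with transcript length in these libraries, which bears on every carrier. Across 9911 measured protein-coding genes Spearman's rho between the log2 ratio and principal transcript length was -0.60, and across the 35 carriers it was -0.66. These are descriptions across genes of 1 pair of libraries, and genes are not replicates. The carriers' principal transcripts ran from 1240 nt for Slc25a5 to 6351 nt for Slc25a12, where the running median of all genes stood at 0.52 and -0.57 in log2. The log2 ratio minus that running median is called length-corrected and is given beside the measured ratio of the carriers that the results turn on. After this correction the median of the 35 carriers was 0.01, 29 of 35 moved toward 0, and 1 carrier was at least 1.5-fold higher and 3 lower, beside 9.65% and 11.3% of protein-coding genes. The part of RNA quality or library preparation in this trend was not tested.

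**Figure D3:**
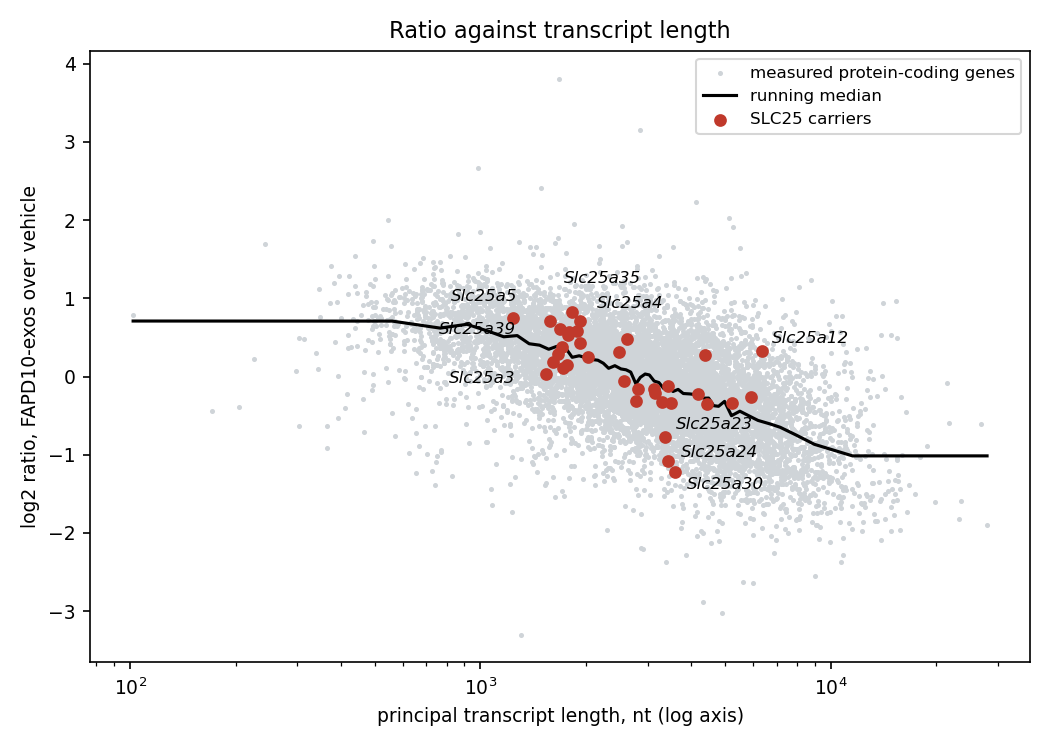
Log2 ratio against principal transcript length on a log axis for measured protein-coding genes (grey), their running median (black line) and the 35 measured SLC25 carriers (red). Short carriers such as Slc25a5 and Slc25a4 lie near or above a positive median, Slc25a12 lies above the line at 6351 nt, and Slc25a23, Slc25a24 and Slc25a30 lie below it.

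Both expressed ADP/ATP carriers, which exchange matrix ATP for cytosolic ADP, were higher in the treated library. Slc25a4, on chromosome 8 from 46659834 to 46664321 on the minus strand, had 7075 against 4575 counts, or 199 against 121 CPM, a ratio of 1.64 (1.56 to 1.73). Slc25a5, on the X chromosome from 36059304 to 36062460 on the plus strand, had 4870 against 3078 counts, or 137 against 81.4 CPM, a ratio of 1.68 (1.58 to 1.79). These positions are those of the count table, and the mouse build they refer to was not named in any source used. The length-corrected log2 ratios of Slc25a4 and Slc25a5 were 0.45 and 0.23, both under 1.5-fold. Slc25a5 has processed pseudogenes that can share its reads, one of which, Slc25a5-ps, is a gene of its own in the table, so its value is uncertain. The phosphate carrier Slc25a3, which brings in the phosphate used with ADP, had 8362 against 7812 counts, or 235 against 207 CPM, a ratio of 1.14 (1.09 to 1.19), and stood at -0.18 after the length correction. Its ratio was thus below those of the ADP/ATP carriers, although with the exon length of the table in place of the principal transcript Slc25a3 stood at 0.39, beside 0.40 for Slc25a4 and 0.35 for Slc25a5.

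The calcium-regulated ATP-Mg/phosphate carriers, which adjust the adenine nucleotide pool of the matrix, all had ratios below 1. Slc25a24, at 109030465 to 109075773 of chromosome 3 (plus strand), had 532 against 1197 counts, 2.12-fold fewer after scaling (1.83 to 2.46). Slc25a23, on chromosome 17 from 57350711 to 57366863 on the minus strand, had 123 against 224 counts and was 1.71-fold lower (1.25 to 2.38). Both remained more than 1.5-fold lower after the length correction, at -0.95 (-1.16 to -0.73) for Slc25a24 and -0.63 (-1.10 to -0.17) for Slc25a23 in log2. The interval of Slc25a23 reaches to within 1.5-fold, and that of Slc25a24 does not. Slc25a25, their paralog, had 542 against 720 counts, for a ratio of 0.799 (0.680 to 0.939), and stood at -0.20, within 1.5-fold. The set thus ran from 0.472 to 0.799 in ratio. The principal transcripts of the 3 genes have like lengths, of 3294 to 3431 nt, and Slc25a41 and Slc25a54 of the same subfamily had no count.

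Among the uncoupling protein relatives, Slc25a30, also known as KMCP1, had the lowest ratio of the measured carriers. It lies on chromosome 14 from 75997557 to 76024477 on the minus strand and had 105 against 261 counts, or 2.95 against 6.91 CPM, which is 2.34-fold lower in the treated library (1.69 to 3.29). Its length-corrected log2 ratio was -1.05. Slc25a14 had 52 against 50 counts, a ratio of 1.10 (0.613 to 1.99). Its interval includes 1 and reaches from 1.63-fold lower to 1.99-fold higher, so no direction is resolved at this depth.

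The aspartate-glutamate carriers, which drive the malate-aspartate shuttle, differed from each other. Slc25a12, known as aralar, on chromosome 2 from 71101407 to 71198093 on the minus strand, had 1132 against 962 counts, or 31.8 against 25.5 CPM, a ratio of 1.25 (1.105 to 1.41). Slc25a13, known as citrin, had 521 against 620 counts and a ratio of 0.892 (0.754 to 1.06). After the length correction Slc25a12 stood at 0.90 in log2, the highest of the 35 carriers and the only one called higher, and at 0.64 with the exon length of the table in place of the principal transcript. Its call rests on the correction, since its measured ratio was within 1.5-fold. Slc25a22, a glutamate carrier, had 96 against 114 counts, a ratio of 0.894 (0.596 to 1.34). The other glutamate carrier, Slc25a18, had 3 against 8 counts, a ratio of 0.398 (0.0221 to 3.20), which does not resolve a difference.

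Carriers of di- and tricarboxylates had ratios between 1.18 and 1.30, and none was called. Slc25a11, which exchanges oxoglutarate for malate, had 550 against 448 counts, a ratio of 1.30 (1.09 to 1.56). Slc25a1, the citrate carrier that feeds cytosolic acetyl-CoA, had 196 against 171 counts, for a ratio of 1.22 (0.902 to 1.65), and the dicarboxylate carrier Slc25a10 had 319 against 286, a ratio of 1.18 (0.939 to 1.495). After the length correction they stood at 0.01, -0.10 and 0.01 in log2, near the median of genes of their length.

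Slc25a39, a carrier required for glutathione import into mitochondria, was higher and its paralog was not. It lies on chromosome 11 from 102293811 to 102298772 on the minus strand and had 1367 against 956 counts, or 38.4 against 25.3 CPM, a ratio of 1.52 (1.35 to 1.71), only just past the threshold and under it when scaled by total counts or by median of ratios. Slc25a40 had 218 against 287 counts and a ratio of 0.807 (0.623 to 1.04). The principal transcript of Slc25a39 is the shorter, at 1685 against 2784 nt, and the length-corrected values were 0.22 and -0.22.

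Neither iron carrier was called. Slc25a28, mitoferrin-2, had 1026 against 1064 counts and a ratio of 1.02 (0.905 to 1.16) that fell below 1 when scaled by total counts or by median of ratios. Slc25a37, mitoferrin-1, which serves heme synthesis in erythroid cells, had 216 against 268 counts and a ratio of 0.856 (0.658 to 1.11). Per length Slc25a28 was 12.9 times the level of Slc25a37 after treatment and 10.8 times with vehicle. These factors rest on principal transcripts of 1535 against 4174 nt, and by raw counts they were 4.75 and 3.97. The intervals of both treated over vehicle ratios exclude a 1.5-fold excess in the treated library and include 1. After the length correction Slc25a28 stood at -0.33 (-0.51 to -0.15) in log2 and Slc25a37 at 0.02.

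Among carriers of other amino acids and of carnitine, none was called. Slc25a38, the glycine carrier that supplies heme synthesis, had 471 against 338 counts, a ratio of 1.48 (1.21 to 1.81), just under the threshold and past it with upper-quartile scaling. Slc25a20, the carnitine-acylcarnitine carrier of fatty acid oxidation, had 229 against 169, a ratio of 1.44 (1.08 to 1.93) that also passed with upper-quartile scaling. Slc25a44, a carrier of branched-chain amino acids, had 452 against 606, a ratio of 0.792 (0.664 to 0.944), and the ornithine carrier Slc25a15 had 188 against 217, a ratio of 0.920 (0.691 to 1.22). Slc25a38 and Slc25a20 have short principal transcripts and stood at 0.27 and 0.21 in log2 after the correction, and Slc25a44 and Slc25a15 at -0.16 and 0.02. The second ornithine carrier, Slc25a2, had 0 against 2 counts, under the floor of 3 counts in both libraries.

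Cofactor carriers divided around a ratio of 1. Slc25a51, the NAD carrier, had 636 against 864, a ratio of 0.782 (0.674 to 0.906), and Slc25a32, a folate or FAD carrier, had 847 against 1083, a ratio of 0.831 (0.730 to 0.945). Both intervals exclude 1 but neither ratio reached 1.5-fold. After the length correction Slc25a51 stood at -0.08 and Slc25a32 at 0.25 in log2. Slc25a17, which is found in peroxisomes, had a ratio of 1.08 (0.852 to 1.37) that fell below 1 when scaled by total counts. The S-adenosylmethionine carrier Slc25a26 had 43 against 34 counts, a ratio of 1.34 (0.678 to 2.70). Slc25a16 had 48 against 59 counts, for a ratio of 0.864 (0.482 to 1.53), and stood at -0.15 in log2 after the correction. Slc25a42, a coenzyme A carrier, was under the filter on low counts, with 45 against 22 counts and a ratio of 2.17 (1.01 to 4.95).

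The pyrimidine nucleotide carriers Slc25a33 and Slc25a36 had measured ratios on opposite sides of 1, with neither direction resolved. Slc25a33 had 96 against 68 counts, for a ratio of 1.499 (0.946 to 2.40), and Slc25a36 had 220 against 296, a ratio of 0.789 (0.611 to 1.02), and both intervals include 1. Slc25a33 has the shorter principal transcript, of 1887 against 5227 nt, and the length-corrected values were both positive, at 0.32 and 0.15.

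Of the 8 members whose substrate was treated as unsettled, 5 were measured. Slc25a35, at 68858957 to 68865191 of chromosome 11 (plus strand), had 110 against 66 counts, for a ratio of 1.77 (1.13 to 2.81), and was called higher. It shares 31.3% of its exon length with Rangrf, so its value is uncertain, and it had a length-corrected log2 ratio of 0.58, just under 1.5-fold. Slc25a47, a liver-enriched member, had 68 against 44 counts, a ratio of 1.64 (0.933 to 2.95) that includes 1. Slc25a46, a member of the outer membrane that acts in mitochondrial dynamics, had 1198 against 1056 counts, for a ratio of 1.20 (1.07 to 1.36), and Slc25a45 had 434 against 370, a ratio of 1.25 (1.02 to 1.52). After the correction Slc25a46, whose principal transcript has 4371 nt, stood at 0.55. The orphan Slc25a53 had 38 against 42 counts, a ratio of 0.961 (0.489 to 1.88) that rose above 1 with upper-quartile scaling, and stood at -0.15 in log2 after the correction. Slc25a43, under the filter, had 2 against 12 counts, a ratio of 0.177 (0.00385 to 1.46).

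Paralogs that share a substrate can be set against each other within a library, which removes the scaling between libraries. The quotient of the ratios of 2 genes was computed for 8 such pairs, with an exact interval for counting error from halved counts. For Slc25a4 over Slc25a5 it was 0.977 (0.899 to 1.06), an interval that includes 1. Slc25a39 gained on Slc25a40 by 1.88-fold (1.42 to 2.51), and Slc25a33 on Slc25a36 by 1.90-fold (1.11 to 3.25). Slc25a12 gained on Slc25a13 by 1.40-fold (1.14 to 1.73). Slc25a24 lost to Slc25a25 by 1.69-fold (1.36 to 2.11), while Slc25a23 over Slc25a25 was 0.729 (0.510 to 1.05) and Slc25a24 over Slc25a23 was 0.809 (0.564 to 1.15). For the mitoferrins, Slc25a28 over Slc25a37 was 1.20 (0.895 to 1.60). With both genes of a pair corrected for transcript length the quotients were 2.01 for Slc25a12 over Slc25a13, 1.36 for Slc25a39 over Slc25a40, 1.12 for Slc25a33 over Slc25a36 and 1.17 for Slc25a4 over Slc25a5. For Slc25a28 over Slc25a37 the corrected quotient was 0.783, on the other side of 1. As the interval before correction includes 1, no direction between the mitoferrins is resolved. Intervals were not computed for the corrected quotients. The 3 pairs of ATP-Mg/phosphate carriers, whose principal transcripts have like lengths, moved little, to 0.596 for Slc25a24 over Slc25a25, 0.743 for Slc25a23 over Slc25a25 and 0.802 for Slc25a24 over Slc25a23.

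Genes that work with the carriers were taken from 10 lists, read at the same 1.5-fold rule against the same background of 16.2% higher and 18.8% lower. Counts after the length correction are to be read against 9.65% higher and 11.3% lower among protein-coding genes. For carrier import, 8 of 13 measured genes were higher and 0 lower, and the median was 0.63 in log2. Timm10, a small chaperone that escorts carrier precursors across the intermembrane space, had 1354 against 604 counts, a ratio of 2.38 (2.08 to 2.74). The related chaperones Timm8b and Timm13 had ratios of 1.71 (1.498 to 1.94) and 1.66 (1.52 to 1.80), whereas Tomm70a, the outer membrane receptor for carriers, was at 0.899 (0.857 to 0.943). After the length correction 3 of 13 were higher, namely Timm10 at 0.60, Timm22, the translocase channel itself, at 0.68, and Tomm20 at 0.79, with a median of 0.34. Tomm70a, with a principal transcript of 5964 nt, then stood at 0.37, above Timm13 at 0.21 and Timm8b at 0.06. Tomm70a, Timm22 and Tomm20 were chosen after their values were seen.

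Proteins of the SLC25 fold that carry other symbols lay on the higher side. Ucp2, an uncoupling protein family member abundant in macrophages, had 4930 against 3256 counts, for a ratio of 1.61 (1.51 to 1.71), and was at 0.91 in log2 once corrected for length. Mtch2, an outer membrane insertase, had a ratio of 1.57 (1.35 to 1.81) and Mtch1 one of 1.26 (1.11 to 1.43), and Mtch2 stood at 0.56 after the correction. Ucp1 had 0 counts in both libraries and Ucp3 1 against 0.

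**Figure D4:**
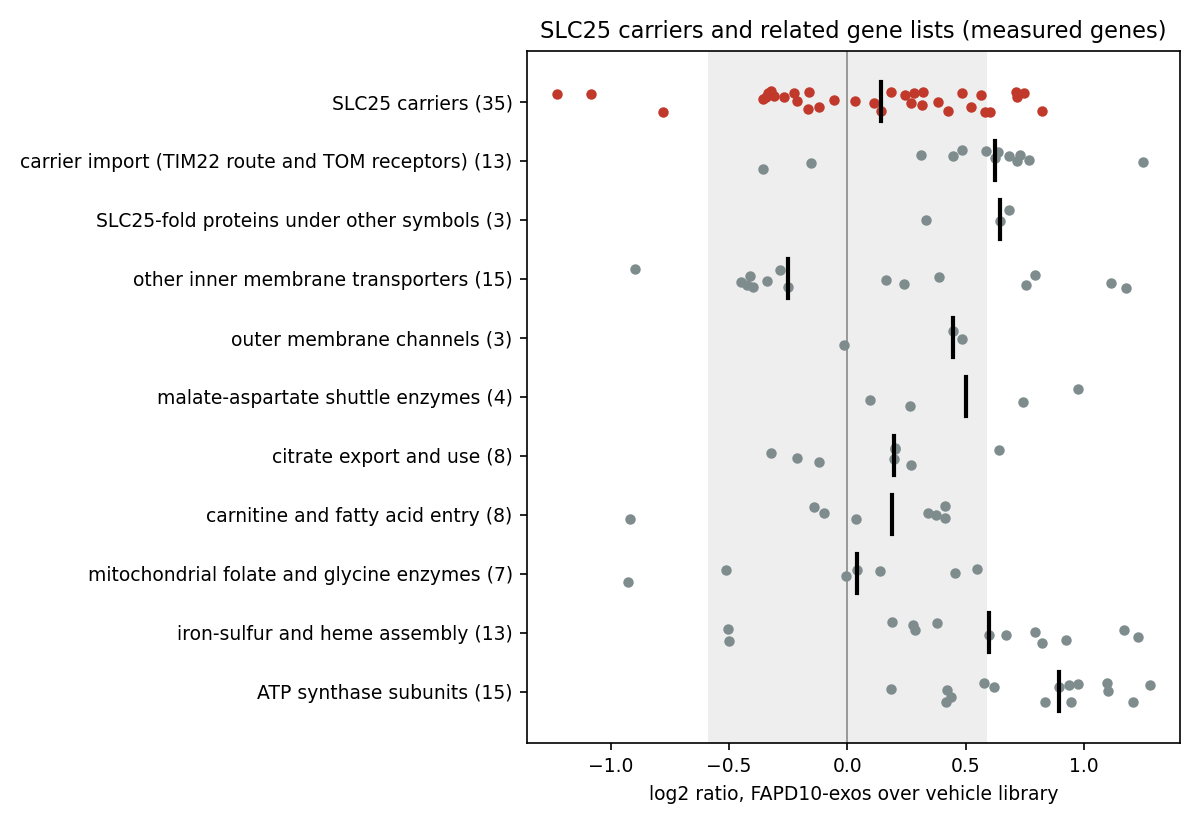
Log2 ratio of the measured SLC25 carriers (red) and of genes in 10 related lists (grey), with the number measured in parentheses, 1 point per gene and a black bar at the median; grey marks ratios within 1.5-fold. The carriers spread to both sides around a median of 0.14, while ATP synthase subunits have a median of 0.89 and carrier import genes one of 0.63.

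Of 15 measured other inner membrane transporters, 4 were higher and 1 lower. Mpc2 of the pyruvate carrier was at 2.27 (1.82 to 2.84) and Smdt1 of the calcium uniporter at 2.17 (1.90 to 2.47). Sfxn2, a sideroflexin, had 135 against 267 counts and was 1.86-fold lower (1.38 to 2.53). After the correction Sfxn2 stood at -0.83 and Letm1, a cation exchanger with 15979 against 9795 counts, named after its value was seen, at 1.28, while Mpc2 at 0.58 and Smdt1 at 0.47 were under 1.5-fold. The 3 outer membrane channels were within 1.5-fold, with Vdac2 at 1.40 (1.33 to 1.47), Vdac3 at 1.36 (1.28 to 1.46) and Vdac1 at 0.991 (0.919 to 1.07).

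In the malate-aspartate shuttle 2 of 4 genes were higher, the malate dehydrogenases Mdh2 at 1.97 (1.89 to 2.04) and Mdh1 at 1.67 (1.53 to 1.82), while the transaminase gene Got1 was at 1.20 (1.07 to 1.35). They stood at 0.57, 0.53 and 0.04 after the correction. Among 8 genes of citrate export and use, 1 was higher, Acod1, which makes itaconate, at 1.56 (1.29 to 1.90), with Me1 at 0.799 (0.685 to 0.932) and Idh1 at 1.21 (1.11 to 1.31). After the correction 0 genes of either list were called, with medians of 0.29 and 0.15.

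Cpt1a, the acyltransferase upstream of the carnitine carrier, had 433 against 868 counts and was 1.89-fold lower (1.60 to 2.23), the only call among 8 measured genes of carnitine and fatty acid entry. It stood at -0.64 after the correction, still past 1.5-fold. The dehydrogenases Acadm and Acadl of fatty acid oxidation were at 1.33 (1.21 to 1.47) and 1.33 (1.25 to 1.42). In the list of mitochondrial folate and glycine enzymes 1 of 7 was lower, Aldh1l2, at 1.90-fold (1.65 to 2.19) and -0.39 after the correction. Gcsh of the glycine cleavage system was at 1.46 (1.34 to 1.60) and Mthfd2l at 0.701 (0.437 to 1.11). After the correction 1 gene was higher, Alas1, the first enzyme of heme synthesis, named after its value was seen, at 0.60, and 1 was lower, Mthfd2l, at -0.72.

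For iron-sulfur and heme assembly, downstream of the mitoferrins, 7 of 13 genes were higher and 0 lower, with a median of 0.60. The scaffold gene Iscu was at 2.35 (2.10 to 2.63) and the glutaredoxin gene Glrx5 at 2.25 (1.83 to 2.79). Iscu and Glrx5 kept a 1.5-fold excess after the length correction, at 0.59 and 1.15 in log2, while the median fell to 0.05 over 12 genes with a length. Of 15 ATP synthase subunits in the table, which use the substrates of Slc25a3, Slc25a4 and Slc25a5, 10 were higher and 0 lower with a median of 0.89. Atp5e was at 2.43 (2.05 to 2.88) and Atp5h at 2.15 (2.08 to 2.21), and Atp5o, at 2.31 (2.12 to 2.53), overlaps other genes over 43.8% of its exons, which makes its count uncertain. After the correction the median was 0.25 over 14 genes and 1 was higher, Atp5g1, at 1.48 from 131 against 65 counts.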

How the data were processed

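The authors deposited 1 table of whole-number read counts per gene symbol for both libraries, not normalised. Per the submitters' processing notes it was made with fastp 0.23.4, STAR 2.5.3a and featureCounts, and the named build is GRCh38. That build is human while the symbols are mouse, so the mouse build, annotation release, strand setting and handling of multiply matched reads were not named in any source used. Genes that overlap or share near-identical copies cannot be told apart. Among counts of 1 to 50, 76.3% were even after treatment and 75.1% with vehicle.

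The quasi-likelihood test of edgeR needs replicates and could not be fitted with 1 library per group, so no p-value is given. Scaling was by TMM (edgeR 4.0.16 in R 4.3.3; factors 0.957 treated, 1.05 vehicle), and the 95% interval of a ratio was derived from Clopper-Pearson limits (exact) on the share of the treated library in the summed halved counts. Intervals and floors cover counting error only. The length correction used a running median over 50 bins of measured genes. Measured carriers were named, grouped by substrate, with members under the filter named from 20 counts in total and others singled out after their counts were seen. Up to 3 genes per list with at least 100 counts and the largest log2 ratio were named. Of the genes these rules name, 1 carrier and 1 list gene are counted in the totals but not reported here. Members and lists were chosen with earlier results of these data known. Promoters came from RefSeq (GRCm38.p6). The procedure was tested on simulated data made of doubled Poisson counts. These had no trend with length and no variation between cultures, so the test does not cover either. DESeq2 1.42.0 gave an alternative scaling. Python 3.11.15 was used.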

Additional observations from a re-analysis of the deposited data

How the results depend on the processing

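The count of 4 higher carriers was 3 under scaling by total counts and by median of ratios and 6 under upper-quartile scaling, which shifted the all-gene median by -0.13, -0.04 and 0.07 in log2. It was 2, Slc25a35 and Slc25a12, with the exon length of the table corrected for, and 1, Slc25a12, with principal transcript length. Slc25a12 was not among the 4. The count was 2 without Slc25a5 and Slc25a35, whose counts are uncertain, 2 with the whole interval beyond 1.5-fold and 0 at a 2-fold threshold. The count of 3 lower carriers was 1 at a filter of 10 CPM, which leaves 17 carriers. It was 2, without Slc25a23, at a 2-fold threshold and with the whole interval beyond 1.5-fold. Slc25a23, Slc25a24 and Slc25a30 were lower under each of the 3 other scalings and both length corrections. The median log2 ratio of the carriers stayed above 0 under each alternative scaling, filter and length correction and without the uncertain members, from 0.01 to 0.27, while their mean was 0.07 and the ratio of pooled counts 0.28 in log2. The median of the other inner membrane transporters, -0.25, was 0.0666 with exon length corrected for, and that of the folate and glycine enzymes, 0.04, was -0.0866 under total counts, -0.00148 under median of ratios and -0.00470 with exon length. The phosphate carrier Slc25a3 stood at 0.39 in log2 with exon length corrected for, against -0.18 with principal transcript length, and the sign of its corrected value is not settled. No paired analysis was possible because each group has 1 library. Depth limits carriers with under 100 counts in either library, whose interval bounds differ by more than 2-fold.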
